A study of Mus musculus with 93 samples.

Results

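The 10 genes described here carry fatty acids into the cell and through mitochondrial beta-oxidation: Lpl, Cd36, Fabp3, Cpt1a, Cpt1b, Acadm, Acadl, Hadha, Hadhb and Acaa2. They were chosen by name, for their roles in this pathway, from the 24514 genes of the count table, and all 10 are in it. RNA was sequenced from pools of 10 sorted cells of Hcn4GFP; Tbx1Cre; Ai9 mice and of spheroids made from an embryonic stem cell line of the same genotype. In this genotype GFP marks cells that express Hcn4, a pacemaker channel gene of the first heart field. RFP marks cells in which the Tbx1-Cre driver of the second heart field has been active, and it stays on in their progeny after Tbx1 itself is off. The embryo ("in vivo") groups held 5 GFP+ and 4 RFP+ libraries. The sample titles place them at embryonic day 8.5. The protocol and the paper give an earlier embryonic day, E7.75, within the cardiac crescent stage, at which the paper has both heart fields appear. Which of these ages is right could not be settled from the labels. The spheroid ("in vitro") groups held 38 GFP+ and 46 RFP+ libraries sorted at day 5.5, after induction with Activin A, Bmp4 or Wnt ligands, alone or combined, in a medium that contained B27 and bovine serum albumin. The dose given to these spheroids and the embryo or differentiation behind each well are not stated in the labels, so n counts wells and p-values measure the spread between wells.

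Fatty acids reach embryonic cells bound to albumin or inside lipoproteins. Lipoprotein lipase frees them from triglyceride, membrane carriers take them up, small binding proteins hold them in the cytosol, and carnitine carries them into the mitochondrion, where each turn of a 4-step cycle shortens the chain by acetyl-CoA. The adult heart draws most of its energy from this route, whereas the early embryonic heart relies more on glucose and lactate.

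Levels are given as CPM, counts per 1000000 of a library total scaled by the TMM method. A gene was called different at a Benjamini-Hochberg adjusted p under 0.1, the threshold of the study's own methods, in edgeR's quasi-likelihood test over all genes kept by a filter on low counts. Total counts ran from 712732 to 2525460 in the GFP+ and from 1246546 to 1479957 in the RFP+ embryo libraries, and from 828193 to 4371849 and from 445071 to 5658882 in the GFP+ and RFP+ spheroid libraries. GFP+ spheroid well C9 held 6288 counts and was left out, which leaves 37 GFP+ spheroid libraries. The GFP+ embryo libraries detected 6189 to 8302 genes each and the RFP+ embryo libraries 10263 to 13052. In 7 plate rows the RFP+ spheroid wells of columns 3 and 4 were near-identical (r of 0.958 to 0.988 on log2 CPM), though they differed by more than sampling noise, so they were kept apart and summed only as an alternative. GFP+ and RFP+ spheroid wells filled different plate columns, so column and population cannot be told apart in spheroids, whereas embryo libraries of both reporters were in column 12, and 2 RFP+ embryo libraries were in column 11 with GFP+ spheroid wells. Embryo and spheroid libraries of the same reporter shared no column, so source and column cannot be told apart either. The sort labels were checked on their own genes: Hcn4 was at 14.6 ± 16.4 CPM in GFP+ and 0.352 ± 0.704 CPM in RFP+ embryo cells (SD, n = 5 and 4), and Tbx1 had no count in any GFP+ embryo library and was at 3.87 ± 3.47 CPM in RFP+ embryo cells.

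In the mm10 assembly (GRCm38), Lpl lies on chromosome 8 at 68880491 to 68907448 and Fabp3 on chromosome 4 at 130308595 to 130315463, both on the plus strand, and Cd36 on the minus strand of chromosome 5 at 17781690 to 17888801. Cpt1a (chromosome 19, 3322334 to 3385733), Cpt1b (chromosome 15, 89416405 to 89425863), Acadm (chromosome 3, 153922357 to 153944632) and Acadl (chromosome 1, 66830839 to 66863277) are single loci apart from each other. Hadha and Hadhb, the α and β subunits of the mitochondrial trifunctional protein, stand head to head on chromosome 5, with 272 bases between the first base of Hadha at 30154980 and that of Hadhb at 30155253 in RefSeq. Fabp3 overlaps Zcchc17 on the opposite strand, which had 13120 counts over all libraries. The strand setting of the counting is not given, so reads of such a pair cannot be told apart where their exons meet.

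Promoter windows of 250 bases before the start were found in RefSeq (GRCm38.p6) for 7 of the 10 genes, Cd36, Fabp3, Cpt1a, Acadm, Acadl, Hadha and Hadhb. The windows printed here are those of 3 genes with large differences between groups (Cd36, Cpt1a and Acadl) and the stretch shared by the trifunctional pair, each without bases that GENCODE annotates as exon. Those of Cd36 and Cpt1a lie inside the gene spans given above, so they precede RefSeq starts that are internal to these spans. Capitals mark the letters searched on both strands: AGGTCA (the core of a nuclear receptor element, read TGACCT on the other strand), GGGCGG (the GC box, CCGCCC on the other strand) and CCAAT.
Cd36, chr5:17835897-17836146, minus strand: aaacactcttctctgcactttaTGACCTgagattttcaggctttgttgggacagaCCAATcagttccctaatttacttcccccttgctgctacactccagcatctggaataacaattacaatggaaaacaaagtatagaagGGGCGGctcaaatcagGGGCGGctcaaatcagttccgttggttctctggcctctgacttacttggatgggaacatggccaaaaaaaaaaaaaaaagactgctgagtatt
Cpt1a, chr19:3323051-3323284, plus strand: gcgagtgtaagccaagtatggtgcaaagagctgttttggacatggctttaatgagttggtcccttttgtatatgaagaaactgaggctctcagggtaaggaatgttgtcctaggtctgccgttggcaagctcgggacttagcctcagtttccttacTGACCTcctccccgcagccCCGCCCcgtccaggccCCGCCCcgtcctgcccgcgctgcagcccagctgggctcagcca
Acadl, chr1:66863310-66863559, minus strand: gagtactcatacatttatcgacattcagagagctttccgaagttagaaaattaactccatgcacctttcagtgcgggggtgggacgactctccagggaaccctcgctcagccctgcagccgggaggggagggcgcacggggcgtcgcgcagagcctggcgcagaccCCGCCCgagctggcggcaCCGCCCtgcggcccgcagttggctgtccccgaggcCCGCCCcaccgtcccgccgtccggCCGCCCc
Hadha and Hadhb, chr5:30155163-30155247, plus strand: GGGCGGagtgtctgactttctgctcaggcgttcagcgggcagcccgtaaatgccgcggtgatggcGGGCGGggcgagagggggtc
AGGTCA was found in the full windows of 3 of the 7 genes (Cd36, Cpt1a and Acadm), against 14% of all 32851 mouse windows of this length. GGGCGG was found in 5 of the 7, against 32.7% of all windows, and the Hadha and Hadhb windows share 1 of these matches. CCAAT was in 2 of the 7 against 33.8%. TATAAA (12.4% of all windows) and the direct repeat of AGGTCA with 1 base between the copies (0.0335% of all windows) were in none. These are matches of letters and were not tested as binding sites.

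**Figure D1:**
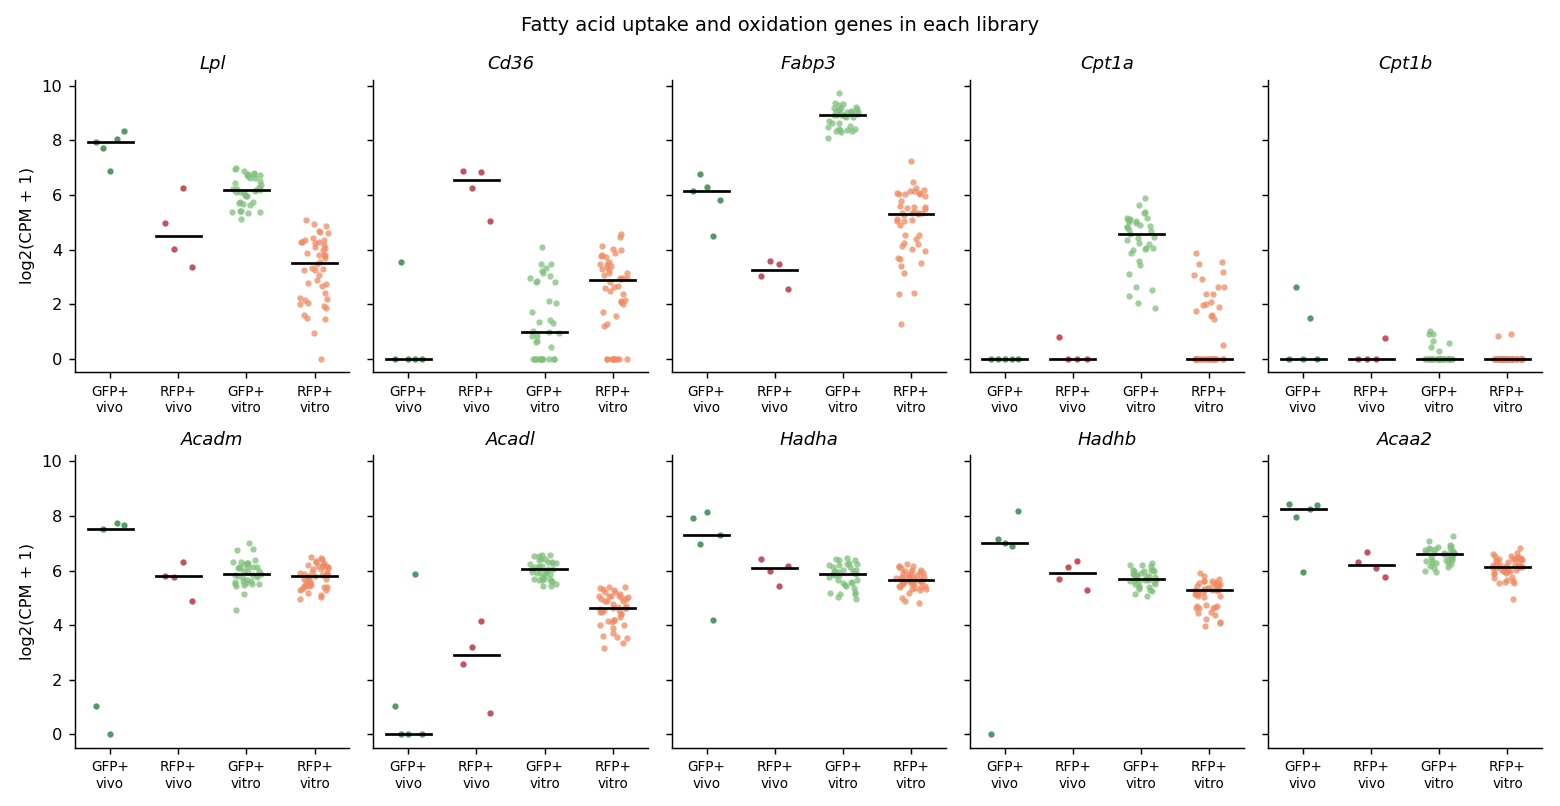
Each point is 1 library, the vertical axis is log2(CPM + 1) and black bars are medians of the group. Lpl and Fabp3 sit higher in GFP+ than in RFP+ cells of either source, Cd36 is highest in the 4 RFP+ embryo libraries, and Cpt1a is above 2 CPM in every GFP+ spheroid library and at 0 in every GFP+ embryo library.

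Per kilobase of exon, which allows genes to be compared with each other, Fabp3 had the highest mean level of the 10 in spheroids (582 CPM per kb in GFP+ and 48.4 CPM per kb in RFP+ cells). Acaa2 was highest in embryo cells, at 172 CPM per kb in GFP+ and 49.6 CPM per kb in RFP+ cells. The carnitine palmitoyltransferases were at the bottom in all 4 groups except that Cpt1a stood above Cd36 in GFP+ spheroid cells (5.33 and 0.860 CPM per kb). Fabp3 and Acaa2 in RFP+ spheroid cells, at 48.4 and 46.7 CPM per kb, were neighbours in this order that did not differ beyond their spread.

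GFP+ and RFP+ cells were compared first in the embryo. The uptake genes split: Lpl and Fabp3 were higher in every GFP+ library than in every RFP+ library, and Cd36 was higher in every RFP+ library than in every GFP+ library. Among the oxidation genes Acaa2 rose in GFP+ cells, Hadha, Hadhb and Acadm were not called, and Acadl did not pass the filter on low counts. Of the 10 genes, 7 passed the filter on low counts and 2 of these, Lpl and Acaa2, were called, beside 10.1% of 8503 genes tested (3.88% with GFP+ and 6.21% with RFP+ cells higher).

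Lpl, the lipase that frees fatty acids from lipoproteins, was at 245, 208, 118, 261 and 320 CPM in GFP+ wells A12 to E12. In RFP+ wells F12, G11, G12 and H11 it was at 30.2, 15.2, 75.6 and 9.15 CPM. The groups did not overlap, and the log2 fold change of GFP+ over RFP+ cells was 2.88 (SE 0.68, adjusted p = 0.0163). It was called whichever embryo library was left out, with values from 2.56 to 3.68.

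Fabp3, the heart-type fatty acid binding protein, was at 70.1, 107, 76.6, 21.6 and 55.1 CPM in the GFP+ wells and at 7.18, 11.1, 10.2 and 4.93 CPM in the RFP+ wells. The lowest GFP+ well was thus above the highest RFP+ well, and the log2 fold change was 3.03 (SE 1.12) with an adjusted p of 0.149, which did not pass. Without GFP+ well D12, the lowest, it passed (3.27, adjusted p = 0.0713). A lack of overlap with GFP+ cells higher was seen for 3.6% of all genes tested.

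Cd36, a membrane carrier of long-chain fatty acids that is also found on endothelium, had no counts in 4 of 5 GFP+ libraries and 10.6 CPM in the other, well B12. In the RFP+ wells it was at 118, 76.2, 113 and 32.4 CPM, above every GFP+ library. This gene passed the filter through its RFP+ libraries, and the log2 fold change was -5.13 (SE 1.77, adjusted p = 0.113). Without well B12 it was called (adjusted p = 0.0140), with a fitted value of -9.77 that depends on the prior count since all other GFP+ wells were at 0, and it was called by DESeq2 (-5.12, adjusted p = 0.0144). Non-overlapping groups with RFP+ higher were seen for 13.7% of genes. Of 8 endothelial markers 7 had the higher mean in RFP+ embryo cells too, while Tek was at 29.3 CPM in GFP+ and 14.6 CPM in RFP+ cells. Of the 3 markers that were tested (Emcn, Kdr and Tek) Emcn alone was called, and it passed the filter through its RFP+ libraries. All 8 had counts in RFP+ embryo cells, with sums of 86.6 to 358 CPM, while Pecam1, Cdh5, Tie1, Emcn and Cldn5 were at 0 in GFP+ embryo cells and the sums there were 0 to 87.5 CPM. Their part in the Cd36 values was not tested. In pooled cells, fewer expressing cells and less RNA per cell cannot be told apart.

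Acaa2, a mitochondrial thiolase of the last step of the cycle, lies on the plus strand of chromosome 18 at 74779197 to 74806208. It was at 345, 249, 60.8, 308 and 337 CPM in the GFP+ wells. In the RFP+ wells it was at 78.3, 101, 67.9 and 53.5 CPM. Well C12 alone lay inside the RFP+ range, and the log2 fold change was 1.83 (SE 0.52, adjusted p = 0.0498). The call was lost without any 1 of the 4 RFP+ libraries, where the change was 1.68 to 1.99 and the adjusted p 0.104 to 0.177.

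Hadha was at 244, 126, 283, 17.5 and 158 CPM in GFP+ and at 84.7, 63.0, 42.5 and 71.8 CPM in RFP+ wells. Hadhb, its partner subunit, was at 0, 143, 128, 118 and 287 CPM in GFP+ and at 51.0, 69.2, 80.7 and 38 CPM in RFP+ wells. For both, 4 of 5 GFP+ libraries stood above all RFP+ libraries and 1 below them, well D12 for Hadha and well A12 for Hadhb. The log2 fold changes were 1.40 (SE 0.71, adjusted p = 0.387) and 1.26 (SE 1.06, adjusted p = 0.725), and Hadha was called without well D12 (1.70, adjusted p = 0.0609).

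Acadm, the medium-chain acyl-CoA dehydrogenase, was at 1.08, 184, 0, 214 and 205 CPM in GFP+ wells and at 54.6, 54.0, 79.0 and 28.9 CPM in RFP+ wells. It thus stood above all RFP+ libraries in 3 GFP+ wells and below them in 2, with a log2 fold change of 1.21 (SE 1.30, adjusted p = 0.814). Acadl, the long-chain acyl-CoA dehydrogenase, had no counts in 3 of 5 GFP+ wells, 1.08 CPM in A12 and 57.0 CPM in D12, and was at 5.03, 8.31, 17 and 0.704 CPM in the RFP+ wells. Cpt1a, which in most tissues forms the acylcarnitine that enters the mitochondrion, had no counts in GFP+ cells and 0.718 CPM in 1 RFP+ well. Cpt1b, the muscle isoform, had 5.11 and 1.84 CPM in 2 GFP+ wells, 0.704 CPM in 1 RFP+ well and nothing in the others. Acadl, Cpt1a and Cpt1b did not pass the filter, and two-sided exact permutation tests gave unadjusted p of 0.413, 0.889 and 0.556, where the smallest that 126 splits allow is 0.0159.

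These GFP+ libraries detected fewer genes than the RFP+ libraries, as given above, and the part of this in their zeros was not tested. The 10 cardiomyocyte markers summed to 17671 to 52112 CPM in GFP+ and to 1185 to 2227 CPM in RFP+ embryo cells, and all 9 of them that were tested were called higher in GFP+ cells. Their part in the levels of Lpl, Fabp3 and Acaa2 was not tested.

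**Figure D2:**
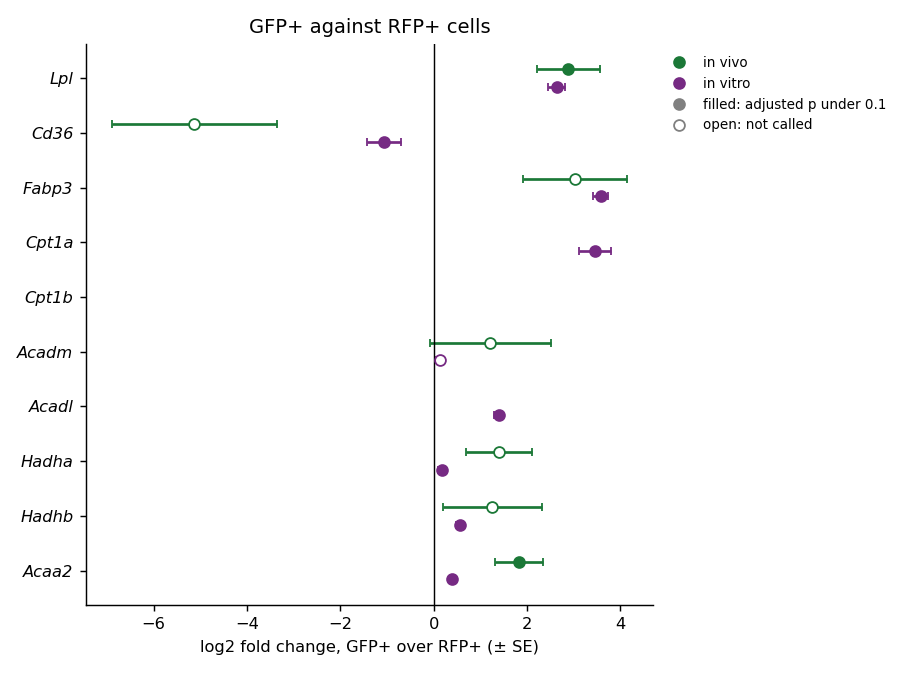
The horizontal axis is the log2 fold change of GFP+ over RFP+ cells with its SE, in vivo (green) and in vitro (purple), and filled points were called at an adjusted p under 0.1. In vivo 2 of 7 genes tested were called and in vitro 8 of 9, with Cd36 to the left of 0 in both.

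In spheroids the same contrast was measured in 37 GFP+ and 46 RFP+ libraries. Lpl, Fabp3, Cpt1a and Acadl rose in GFP+ cells by log2 fold changes of 1.39 to 3.58, Hadhb, Acaa2 and Hadha rose by 0.17 to 0.56, Cd36 fell, and Acadm was not called. Of 9 genes tested 8 were called, 7 of them higher in GFP+ cells, where 78% of 9990 genes were called, 39.6% with GFP+ and 38.4% with RFP+ cells higher.

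Fabp3 ran from 272 to 850 CPM in GFP+ wells (median 491) and from 1.45 to 149 CPM in RFP+ wells (median 38.9). No RFP+ well reached the lowest GFP+ well, and the log2 fold change of 3.58 (SE 0.16, adjusted p = 8.95e-38) was the largest of the 10 genes. Lpl ran from 33.8 to 125 CPM in GFP+ wells (median 70.7) and from 0 to 33.1 CPM in RFP+ wells (median 10.3), again without overlap. Its log2 fold change was 2.64 (SE 0.18, adjusted p = 7.55e-25). Acadl ran from 42.8 to 95.1 CPM in GFP+ wells (median 64.9) and from 7.96 to 41.3 CPM in RFP+ wells (median 24). It was the third gene without overlap, with a log2 fold change of 1.39 (SE 0.10, adjusted p = 1.32e-22), and such separation with GFP+ higher was seen for 2.09% of all genes tested.

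Cpt1a ran from 2.61 to 58.8 CPM in GFP+ wells (median 22.7) and from 0 to 13.5 CPM in RFP+ wells, 27 of which had no counts. The log2 fold change was 3.45 (SE 0.35, adjusted p = 5.82e-16), and 29 of 37 GFP+ wells stood above every RFP+ well. It passed the filter on low counts through its GFP+ wells, where 32 of 37 reached the cutoff of 6.61 CPM, against 5 of 46 RFP+ wells. Cpt1b was absent from the counts of 30 of 37 GFP+ and 44 of 46 RFP+ wells, failed the filter, and gave p = 0.0898 in a two-sided permutation test. Between these isoforms of the carnitine step, Cpt1a passed the filter on low counts in spheroids and Cpt1b did not.

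Hadhb was at 52.9 ± 11.2 CPM in GFP+ and 35.3 ± 11.1 CPM in RFP+ wells (SD, n = 37 and 46), with a log2 fold change of 0.56 (SE 0.089, adjusted p = 2.81e-08). Acaa2 was at 94.7 ± 20.0 and 70.8 ± 16.5 CPM, a change of 0.40 (SE 0.071, adjusted p = 4.61e-07). Hadha was at 57.6 ± 16.4 and 50.7 ± 11.3 CPM, a change of 0.17 (SE 0.083, adjusted p = 0.0580). All 3 overlapped widely between the populations, and the call of Hadha was lost with the near-identical wells summed (adjusted p = 0.109). Acadm was at 62.4 ± 21 and 56.2 ± 15.6 CPM, a change of 0.13 (SE 0.094) with an adjusted p of 0.204, and it passed with DESeq2's size factors (0.17, adjusted p = 0.0963).

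Cd36 went the other way, with a median of 0.961 CPM in GFP+ wells (0 to 15.9) and of 6.34 CPM in RFP+ wells (0 to 22.5). It had no counts in 12 of 37 GFP+ and 9 of 46 RFP+ wells, and the log2 fold change was -1.07 (SE 0.37, adjusted p = 0.00613). It fell under the filter when the near-identical wells were summed. Endothelial marker sums were 0.426 to 50.8 CPM in GFP+ and 3.36 to 145 CPM in RFP+ spheroid wells, and their part in this difference was not tested. Within the 8 plate rows, the mean of RFP+ wells was higher in 8 for Cd36, and the mean of GFP+ wells was higher in 8 for Lpl, Fabp3, Cpt1a, Acadl and Acaa2, in 7 for Hadhb and in 6 for Hadha and Acadm. Cardiomyocyte marker sums, at 27.6 to 1274 CPM in GFP+ and 14.4 to 137 CPM in RFP+ wells, lay mostly below the 1185 to 52112 CPM of embryo libraries. Pluripotency markers summed to 35.3 to 1639 CPM in GFP+ and to 4.14 to 544 CPM in RFP+ wells, with 4 of 5 tested called higher in GFP+ cells. The part of either list in the differences of the 10 genes was not tested.

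The wider pathway was read from 8 lists of other lipid genes, whose counts in spheroids stand beside the 39.6% of all genes called higher and the 38.4% called lower in GFP+ cells. All 4 tested genes of the carnitine shuttle were called higher in GFP+ cells, Cpt1c (1.73), Crat (1.00), Cpt2 (0.40) and Slc25a20, with a median log2 fold change of 0.70 beside 0.0066 over all genes. Of 15 other genes of mitochondrial beta-oxidation 8 were higher in GFP+ cells and 5 lower (median 0.19). Acad11 led with 1.56, followed by Etfdh (1.26) and Etfa (1.14), which pass electrons from the acyl-CoA dehydrogenases to the respiratory chain. Etfa was at 270 ± 44.2 CPM in GFP+ and 121 ± 22.6 CPM in RFP+ wells. Peroxisomal oxidation had 5 of 9 genes higher and 2 lower (median 0.44), among them Acox3 (1.64) and the import receptor Pex5 (0.81). Median levels of Acox3 were 13.3 CPM in GFP+ and 2.69 CPM in RFP+ wells. With the cutoff of the filter at 6.61 CPM, Acox3 passed mainly through its GFP+ wells.

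Fatty acid synthesis and desaturation had 1 of 14 genes higher in GFP+ cells and 11 lower, with a median of -0.91. Me1, which makes NADPH, rose (1.58), whereas the desaturases Fads2 (-1.30) and Scd2 (-1.09) fell. Scd2 was at 499 ± 82.6 CPM in GFP+ and 1052 ± 134 CPM in RFP+ wells. Storage and lipolysis of triglyceride had 4 of 8 higher and 4 lower (median 0.22), with the lipid droplet coat gene Plin2 (1.99), the lipase co-activator Abhd5 (1.89) and the lipase Pnpla2 (1.42) at the top. Transport, binding and activation had 2 of 10 higher and 6 lower (median -0.33): Fabp5 fell by 1.79 on the log2 scale, Slc27a1 rose (1.75) and Slc27a4 fell by 1.04. Fabp5 and Fabp3, binding proteins of 1 family, thus moved in opposite directions, with Fabp5 at 93.8 ± 27.3 CPM in GFP+ and 321 ± 35.4 CPM in RFP+ wells. Medians in GFP+ and RFP+ wells were 14.8 and 4.55 CPM for Slc27a1, and 4.06 and 8.85 CPM for Slc27a4. With the cutoff at 6.61 CPM, each of these carriers passed the filter mainly through the population where it was higher. Lpl partners and lipoprotein receptors had 1 of 6 higher (Vldlr, 0.72) and 2 lower, among them Lmf1 (-0.33), and regulators had 3 of 6 higher and 2 lower, with Lpin1 (2.18), Prkaa2 (2.04) and Acaca (-0.86) the largest. In the regulator list 12 genes instead of 5 were called by DESeq2 and also by edgeR with no filter on low counts.

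**Figure D3:**
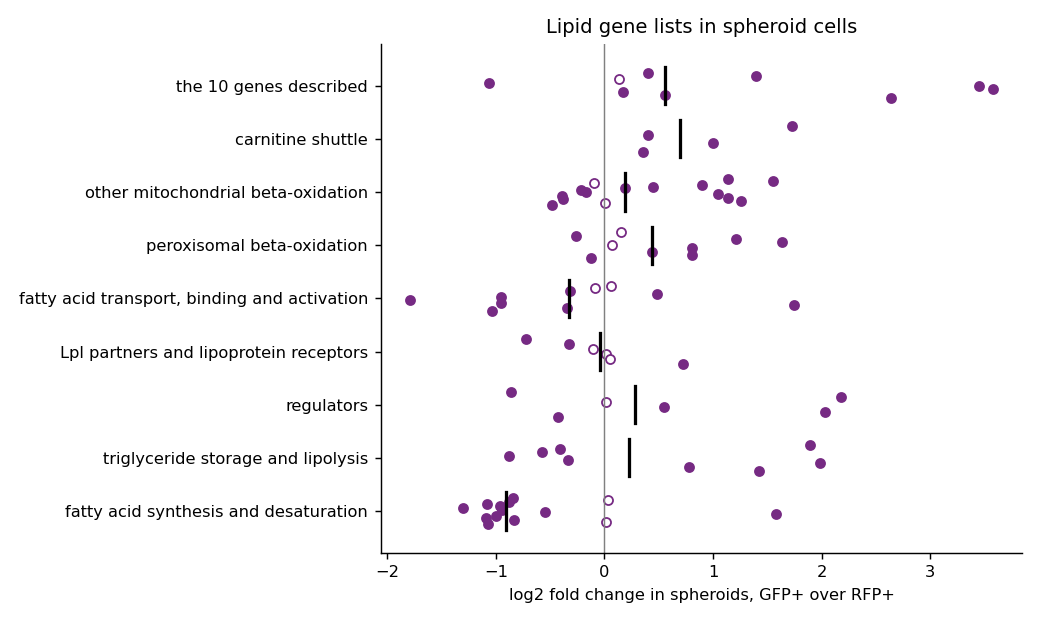
Each point is 1 gene, the horizontal axis is the log2 fold change of GFP+ over RFP+ spheroid cells, filled points were called at an adjusted p under 0.1 and black bars are list medians. The medians run from -0.91 for fatty acid synthesis and desaturation to 0.70 for the carnitine shuttle.

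In the embryo 8 of 61 tested genes of these lists were called (13.1%), beside 10.1% of all genes. Carnitine shuttle genes gave 0 calls of 3 tested and peroxisomal genes 0 of 7 by edgeR, where 0 and 1 were at an unadjusted p under 0.05, and by DESeq2 there were 0 and 2 calls. Sel1l (2.23) was the only call among 6 Lpl partners, Acsl4 (2.64) was higher and Fabp5 (-2.79) lower in GFP+ cells among 6 transport genes, and Hsd17b10 (-1.21) was the only call among 13 genes of mitochondrial oxidation. Nrip1 (-4.95) was the only call among the 4 regulators tested, of 16 listed. Dgat2 had no counts in any GFP+ library and 7.62 to 30.6 CPM in RFP+ libraries (adjusted p = 0.0117), the only call among 8 storage genes. Dgat2 and Nrip1 passed the filter through the RFP+ libraries, where they were high. Scd2 (1.41) and Hsd17b12 (1.20) were the calls among 14 synthesis genes. Each of these lists fell to 0 calls when certain single libraries were left out: Lpl partners without RFP+ well G11 or H11, transport without GFP+ well B12 or RFP+ well F12, G11 or H11, mitochondrial oxidation without any 1 RFP+ well, regulators without H11, storage without B12, D12 or H11, and synthesis without G11. Scd2, Hsd17b12 and Acsl4 were called with opposite directions, GFP+ cells being higher in the embryo and RFP+ cells in spheroids. Scd2 was at 1094 ± 598 CPM in GFP+ and 423 ± 76.4 CPM in RFP+ embryo cells, against 499 and 1052 CPM in spheroids.

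Whether the GFP+ against RFP+ difference itself differed between embryo and spheroid was tested in 1 limma fit over the 4 groups, with a spread for each group. Acaa2 was the only called gene of 9 tested, with a difference of log2 fold changes of 1.31 (SE 0.40, adjusted p = 0.0271), larger in vivo. For all genes, 12.8% of 12673 were called, 3.99% with a positive and 8.77% with a negative difference, and the median difference was -1.63. The sign is that of GFP+ over RFP+ in vivo minus in vitro, so a negative difference is not always a smaller effect in vivo. Acaa2 was called in each fit without 1 embryo library, with values from 1.19 to 1.61. Of the other lipid genes, Scd2 (2.22, SE 0.31), Hsd17b12 (1.75, SE 0.30) and Acsl4 (2.67, SE 0.58), whose directions were opposite in the 2 sources, were called here too, with adjusted p of 3.36e-08, 9.01e-06 and 6.59e-04. Lpl (0.29, SE 0.80, adjusted p = 0.818) and Fabp3 (-1.28, SE 1.77, adjusted p = 0.645) were not called, and neither were Cd36 (-5.03, SE 3.29), Cpt1a (-4.82, SE 3.49) and Acadl (-3.16, SE 2.11), whose errors exceed 2 log2 units.

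The study also set spheroid cells beside embryo cells of the same reporter. In GFP+ cells Lpl, Acadm, Hadha, Hadhb and Acaa2 were higher in the embryo, and Fabp3, Cpt1a and Acadl were higher in spheroids. In RFP+ cells Cd36, Lpl, Hadhb and Hadha were higher in the embryo, and Fabp3 and Acadl were again higher in spheroids. The calls were 8 of 9 genes tested in GFP+ cells, where 68.4% of 11953 genes were called (20.2% higher in vivo and 48.1% higher in vitro), and 6 of 9 in RFP+ cells, where 42.6% of 11147 genes were called (20.1% higher in vivo and 22.5% higher in vitro). Median log2 fold changes over all genes were -0.65 in GFP+ and -0.044 in RFP+ cells, and the contrasts share the groups described above.

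Fabp3 was the clearest case in GFP+ cells, since all 5 embryo libraries (21.6 to 107 CPM) lay below all 37 spheroid libraries (272 to 850 CPM). The log2 fold change of in vivo over in vitro was -2.94 (SE 0.25, adjusted p = 1.96e-14) in GFP+ and -2.24 (SE 0.64, adjusted p = 0.00442) in RFP+ cells. Cpt1a was at 0 in all 5 GFP+ embryo libraries and at 23 ± 13.1 CPM in spheroids. With each embryo library set at 3 counts it was at least 9.09-fold lower in the embryo, a bound that covers the counts alone. The GFP+ embryo libraries detected 6189 to 8302 genes each, against 12837 to 14671 in GFP+ spheroid libraries. The part of this in the zeros was not tested. A lack of overlap with the spheroid cells higher was seen for 13.3% of genes. Cpt1a passed the filter through its spheroid wells, where 32 of 37 reached the cutoff of 5.86 CPM, against 0 of 5 embryo wells. For Acadl these were 37 of 37 and 1 of 5. Acadl was also lower in embryo cells, with log2 fold changes of -2.46 (SE 0.54, adjusted p = 9.76e-05) in GFP+ cells and -1.69 (SE 0.40, adjusted p = 5.01e-04) in RFP+ cells. The size in GFP+ cells rests on well D12 (-7.97, SE 0.54, adjusted p = 3.00e-18, without it), and it was called whichever embryo library was left out. In order of median level Acadl ran from GFP+ spheroid through RFP+ spheroid and RFP+ embryo to GFP+ embryo cells, and the last pair did not differ beyond their spread.

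Lpl had the reverse order of sources, with a log2 fold change of 1.53 (SE 0.22, adjusted p = 7.28e-08) in GFP+ cells, where 4 of 5 embryo libraries were above all spheroid libraries. In RFP+ cells it was 1.45 (SE 0.48, adjusted p = 0.0147), a call that rested on well G12 (0.62, adjusted p = 0.458, without it). Acaa2 rose in GFP+ embryo cells by 1.36 (SE 0.18, adjusted p = 6.73e-09) and was at 0.086 (SE 0.18, adjusted p = 0.741) in RFP+ cells. Hadha and Hadhb were higher in the embryo by 1.43 (SE 0.25) and 1.28 (SE 0.30) in GFP+ cells and by 0.38 (SE 0.17, adjusted p = 0.0815) and 0.75 (SE 0.22, adjusted p = 0.00654) in RFP+ cells. Acadm was at 0.88 (SE 0.39, adjusted p = 0.0461) in GFP+ cells, with the call lost without well B12, D12 or E12, and at -0.065 (SE 0.21, adjusted p = 0.841) in RFP+ cells.

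Cd36 had the largest called difference of the 10 genes between embryo and spheroid in RFP+ cells. All 4 embryo libraries (32.4 to 118 CPM) were above all 46 spheroid libraries (0 to 22.5 CPM), which was seen with embryo cells higher for 2.48% of genes, and the log2 fold change was 3.63 (SE 0.46, adjusted p = 1.75e-09). Of the endothelial markers 5 of 6 tested were called higher in the RFP+ embryo cells, and their part was not tested. In GFP+ cells Cd36 was at -0.44 (SE 1.06, adjusted p = 0.732), a value set by well B12. Without that well every GFP+ embryo library was at 0 and lower expression was called (adjusted p = 0.0186), with a fitted value of -5.57 that depends on the prior count. Cpt1b, tested alone, gave exact permutation p of 0.0334 in GFP+ cells and 0.451 in RFP+ cells at mean levels under 2 CPM.

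The edgeR fit gives the embryo and spheroid groups 1 spread. With a spread for each group in limma, the calls were 4 in GFP+ cells (Lpl 1.61, Fabp3 -3.15, Acadl -5.29 and Acaa2 1.31), where 20.2% of all genes were called, and 3 in RFP+ cells (Cd36 4.17, Acadl -2.17 and Hadhb 0.72), where 19.1% were.

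Among the lists, fatty acid synthesis was the one with most calls in RFP+ cells, with 1 of 14 genes higher and 8 lower in the embryo (Scd1 -2.32, Acly -1.34 and Scd2 -1.31, median -0.66). In GFP+ cells 4 of these 14 were higher and 2 lower, and 11 were called without well A12. Transport genes had 2 of 12 higher and 8 lower in GFP+ and 3 and 3 of 12 in RFP+ embryo cells, led in both by the brain-type binding protein gene Fabp7 (-6.03 and -5.67). Fabp7 had means of 0.300 and 0.705 CPM in GFP+ and RFP+ embryo cells, against 21.7 and 41.8 CPM in spheroids. It passed the filter through its spheroid wells, so the sizes of both changes rest on embryo values near 0. Mitochondrial oxidation had 2 of 16 higher in either population, with 6 lower in GFP+ and 4 lower in RFP+ cells, and peroxisomal genes had 1 of 12 higher and 4 lower in GFP+ and 0 and 3 of 12 in RFP+ cells. In the carnitine shuttle Slc25a20 was the only call of 6 in each population (1.41 and 0.90), and by the limma fit there was none in either.

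**Figure D4:**
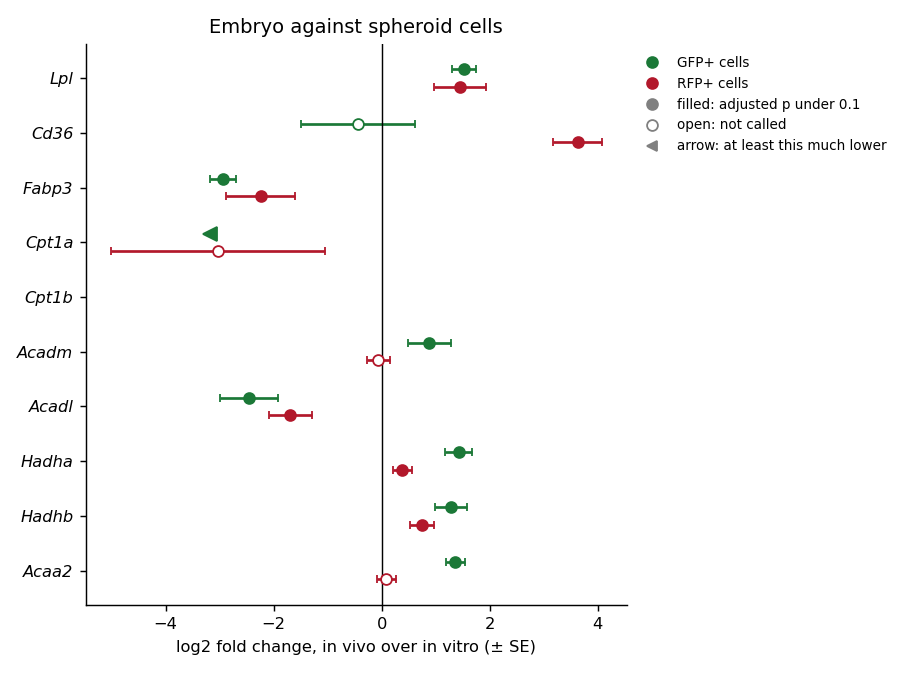
The horizontal axis is the log2 fold change of embryo over spheroid cells with its SE, in GFP+ (green) and RFP+ cells (red), with filled points called by edgeR at an adjusted p under 0.1 and the arrow marking the bound for Cpt1a. Fabp3, Cpt1a and Acadl lie left of 0 in both populations, and Cd36 lies near 3.63 in RFP+ cells.

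Across wells of 1 spheroid population the 10 genes had little in common. Among the 8 of them with a mean of at least 10 CPM in GFP+ wells, Spearman's rho of log2 CPM over 37 wells had a median of 0.0289 in 28 pairs and ran from -0.267 to 0.352. Among 7 in RFP+ wells the median was 0.0216 in 21 pairs, from -0.219 to 0.309. Fabp3 and Cpt1a were the most alike in GFP+ wells (0.352), and Lpl and Fabp3 in RFP+ wells (0.309). Hadha and Hadhb, which share the stretch between their starts printed above and whose proteins form 1 complex, were the least alike pair in GFP+ wells, with a rho of -0.267. In RFP+ wells Hadha with Hadhb stood at -0.0733, and Lpl with Hadha was the least alike pair (-0.219). Their ratio of counts, Hadha to Hadhb, had a median of 1.16 (0.479 to 2.16) in GFP+ and 1.39 (0.650 to 3.95) in RFP+ wells. These libraries differ in depth, the labels give no more than a well for each, and the part of counting error in these low values was not tested.

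Other genes were more alike to single members of the set than the members were to each other, as the highest of 8922 genes of at least 10 CPM must be by selection. In GFP+ wells the leading genes were Fam76a for Acadl (rho 0.706), Gnpda1 (0.663) and Fbxo32 (0.660) for Fabp3, Fbxo32 for Cpt1a (0.650), Vldlr for Hadha (0.612), Tardbp for Hadhb (0.609), Scai for Acadm (0.570), Dennd5a for Lpl (0.569) and Rpa2 for Acaa2 (0.564). Fbxo32 was among the 3 most alike to both Fabp3 and Cpt1a.

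**Figure D5:**
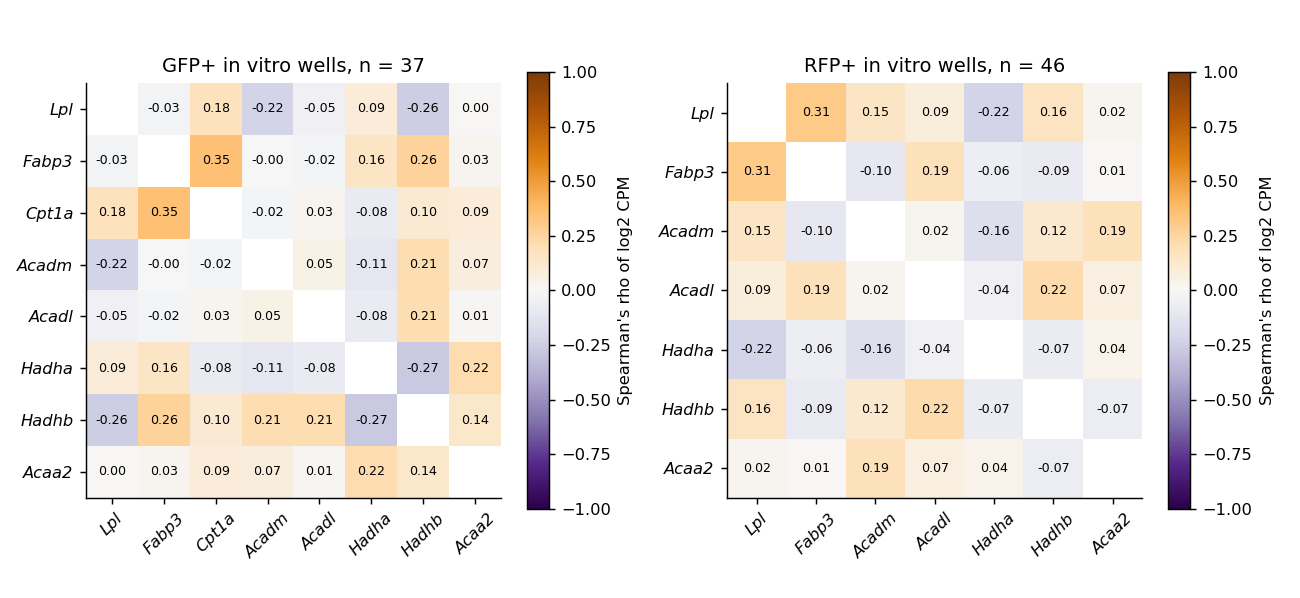
Each cell gives Spearman's rho between the log2 CPM of 2 genes over GFP+ wells (left, n = 37) and RFP+ wells (right, n = 46) of the spheroids, for genes with a mean of at least 10 CPM. No pair exceeds 0.352, and Hadha with Hadhb stands at -0.267 in GFP+ and -0.0733 in RFP+ wells.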

How the data were processed

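The authors deposited 1 table of raw read counts per gene symbol for 93 libraries. Per the labels, reads were trimmed with Trimmomatic 0.36, mapped to mm10 with HISAT2 2.0.4 and counted with featureCounts 1.5.2, and the paper gives a minimum quality of 35 and length of 36 for trimming. Counts were used as deposited in R 4.3.3 with edgeR 4.0.16 (TMM, filterByExpr, quasi-likelihood F-test), limma 3.58.1 (voom with group weights, for the difference of effects) and, as an alternative, DESeq2 1.42.0. Adjustment followed Benjamini and Hochberg across every gene in the fit (Benjamini-Hochberg). Libraries under 50000 counts were left out. Genes under the filter were tested alone on log2 CPM (prior count 2) by two-sided permutation, exact where a group had under 10 libraries and with 100000 resamples otherwise, unadjusted. The 10 genes, the lists and the naming rule were chosen with earlier results of these data known. The text names all 10 genes, and in each list the 3 largest called changes and any gene called in opposite directions in the 2 sources. Positions come from GENCODE M21, in which 96.8% of the symbols were found, and promoters from RefSeq. Scripts were tested on simulated counts.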

Additional observations from a re-analysis of the deposited data

Results flagged for a closer look

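In the embryo groups 4 of 19 sets of values held a sample far from the others, where chance alone flags about 1 in 20 groups with spread. In 3 of the 4 every other well was at 0, so that any count stands apart and this rate does not apply. Cd36 was at 10.6 CPM in GFP+ well B12 and at 0 in the other 4 wells. Acadl was at 57.0 CPM in GFP+ well D12, where the next highest well was at 1.08 CPM. Cpt1a at 0.718 CPM in RFP+ well F12 and Cpt1b at 0.704 CPM in RFP+ well H11 stand apart from wells that were all at 0, and each is a single read.

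The GFP+ against RFP+ difference itself differed between embryo and spheroid for Acaa2 among the 10 genes (difference of log2 fold changes 1.31, adjusted p = 0.0271, limma with a spread for each group). Of the other lipid genes 10 of 93 tested were called, 6 with a positive and 4 with a negative difference, beside 3.99% and 8.77% of all genes. The positive ones were Acsl4 (2.67), Scd2 (2.22), Elovl5 (2.00), Hsd17b12 (1.75), Sel1l (1.70) and Acly (1.44), and the negative ones Eci1 (-4.52), Fasn (-3.76), Plin2 (-2.73) and Hsd17b10 (-0.90). Acly is outside the naming rule and was named after its values were seen. Cardiomyocyte marker sums differed between the same groups, as given above, and their part was not tested.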

How the results depend on the processing

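No paired analysis was possible because the labels give plate wells and no replicate numbers shared between groups. With plate row as a block instead, 7804 genes and 8 of the 10 were called in spheroids, against 7789 and 8 without it. Other scalings (DESeq2's size factors, TMMwsp, total counts) moved the median log2 fold change of all genes from -0.65 to between -0.68 and -0.47 for GFP+ embryo against spheroid cells and from -0.094 to between -0.12 and 0.036 for GFP+ against RFP+ embryo cells, and none of them turned the direction of any of the 10 genes. Among GFP+ against RFP+ embryo cells, 4 of the 10 genes instead of 2 were called by DESeq2, by limma with group weights and with libraries of at least 1000000 counts. Genes called there numbered 858 and became 1936, 2271 and 2564 in these 3, and 2000 with no filter on low counts. The minimum of 1000000 counts kept B12 and D12 as the only GFP+ embryo wells, since A12, C12 and E12 held fewer. In spheroids 13056 genes were called with no filter, against 7789. Limma called 4 of the 10 genes and 2413 genes in all instead of 8 and 8171 for GFP+ embryo against spheroid cells, and 3 and 2125 instead of 6 and 4745 for RFP+ cells. For the difference between the effects, the edgeR interaction term called 4 of the 10 genes and 6925 in all instead of 1 and 1617, and 924 genes passed an adjusted p under 0.05. Leaving out 1 embryo library gave 1 to 4 of the 10 genes and 613 to 1044 genes for GFP+ against RFP+ embryo cells, 7 to 8 and 8559 to 8699 for GFP+ and 5 and 4076 to 4426 for RFP+ embryo against spheroid cells, and 1 to 2 and 958 to 1885 for the difference of effects. Acadm went to -0.33 in limma for GFP+ against RFP+ embryo cells, to -0.53 in limma for GFP+ embryo against spheroid cells (called at 0.88 in edgeR), and to 1.03 with edgeR for the difference of effects, where Hadhb went to 0.61. Cd36 went to 0.67 for GFP+ embryo against spheroid cells with libraries of at least 1000000 counts, where B12 and D12 were the embryo wells kept. Leaving out 1 embryo library turned the sign of 5 uncalled values: for the difference of effects Lpl ran from -0.12 to 0.82, Acadm from -0.95 to 0.78 and Hadhb from -0.83 to 0.79, and for RFP+ embryo against spheroid cells Acadm ran from -0.30 to 0.14 and Acaa2 from -0.092 to 0.22. The causes were not tested. With 10 cells and 4 or 5 libraries a group, genes that reached 7.30 CPM in too few embryo libraries could not be tested by the model for GFP+ against RFP+ embryo cells. Acadl, at a mean of 11.6 CPM in GFP+ embryo cells, was among these. PCR reads carry no molecular identifiers, and wells may share embryos.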
